A study of Macaca mulatta with 38 samples.

Results

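The genes described here are 9 transcription factors used to tell the layers of the cerebral cortex apart: BCL11B, FEZF2, TBR1, SOX5 and FOXP2 for the deep layers, CUX1, CUX2 and POU3F2 for the upper layers, and RORB for the granular layer between them. They were taken by name from a table of 34619 genes, and all 9 passed the filter on low counts, which left 20794 genes for testing. They were followed in 38 bulk RNA sequencing libraries of cultured wild-type rhesus macaque (Macaca mulatta) neural stem cells from the fetal cortex. The 4 culture series came from the anterior and the posterior cortex at embryonic day 42 (called E42 Anterior and E42 Posterior, with 9 libraries in each) and from the frontal and the occipital cortex at embryonic day 77 (called E77 Frontal and E77 Occipital, with 10 libraries in each). Every series was expanded in N2 medium with daily FGF2, a growth factor that keeps neural progenitors dividing, and was sampled on days 1, 3 and 5, here called the stem phase. FGF2 was then withdrawn and the cells were moved to NeuroBasal medium with B27 and the neurotrophins BDNF and NT-3. They were sampled on days 6, 7 and 8 (the transition phase) and on days 11, 14 and 17, with day 20 added at E77 (the terminal phase). All groups shared the wild-type genotype, the coated culture plates and the low-oxygen incubator. RNA came from 2 wells per condition, and the labels give 1 library per series and day without naming separate animals.

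Cortical projection neurons are produced in order, deep layers before upper layers, from radial glia and intermediate progenitors, and layer factors are switched on as the neurons mature and repress one another's programmes. TBR1 acts in early-born corticothalamic and subplate neurons, FEZF2 in subcerebral projection neurons and in early progenitors, and BCL11B, also called CTIP2, acts downstream of FEZF2. SOX5 times the production of deep-layer neurons, and FOXP2 marks corticothalamic neurons. CUX1 and CUX2 shape the dendrites of upper-layer neurons, POU3F2, also called BRN2, acts in progenitors and in upper-layer neurons, and RORB marks neurons that receive thalamic input. Several of them are not particular to the cortex: BCL11B and FOXP2 are also strong in striatal neurons, BCL11B in interneurons, SOX5 in glial precursors and in cartilage, and CUX1 in many dividing cells.

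Total counts ran from 20149635 to 56363300 per library, with a median of 27597365.5. SOX2 (348 to 1126 CPM, counts scaled to a common library size) and PAX6 (78.4 to 242 CPM), which mark neural progenitors, were present in all 38 libraries, as the labelled cell type has it. The E42 Anterior libraries stood apart. COL1A1, the main collagen chain of connective tissue, was at 4562 to 16319 CPM there and at 0.0613 to 122 CPM in the other 3 series. The summed level of 8 mesenchymal genes was 14024.5 to 39447.5 CPM in E42 Anterior and 47.9 to 355.2 CPM elsewhere, with none of the 8 at 0 in any series. All 8 were higher in E42 Anterior than in E42 Posterior in the stem phase (median log2 difference 6.95, against -0.05 for all genes) and in the terminal phase (9.78 against -0.07). Of all tested genes, 35.5% were called between these series in the stem phase and 35.8% in the terminal phase. Their part in the differences that involve E42 Anterior was not tested, and values without that series are given beside age comparisons that it moves. In these bulk libraries, fewer cells of a type and less RNA per cell cannot be told apart. Age and region cannot be told apart from the animal, its dissection and its culture run. The p-values measure only the spread between the days of a culture. In comparisons between ages or regions, the day course that the series share was first taken out of that spread.

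**Figure D1:**
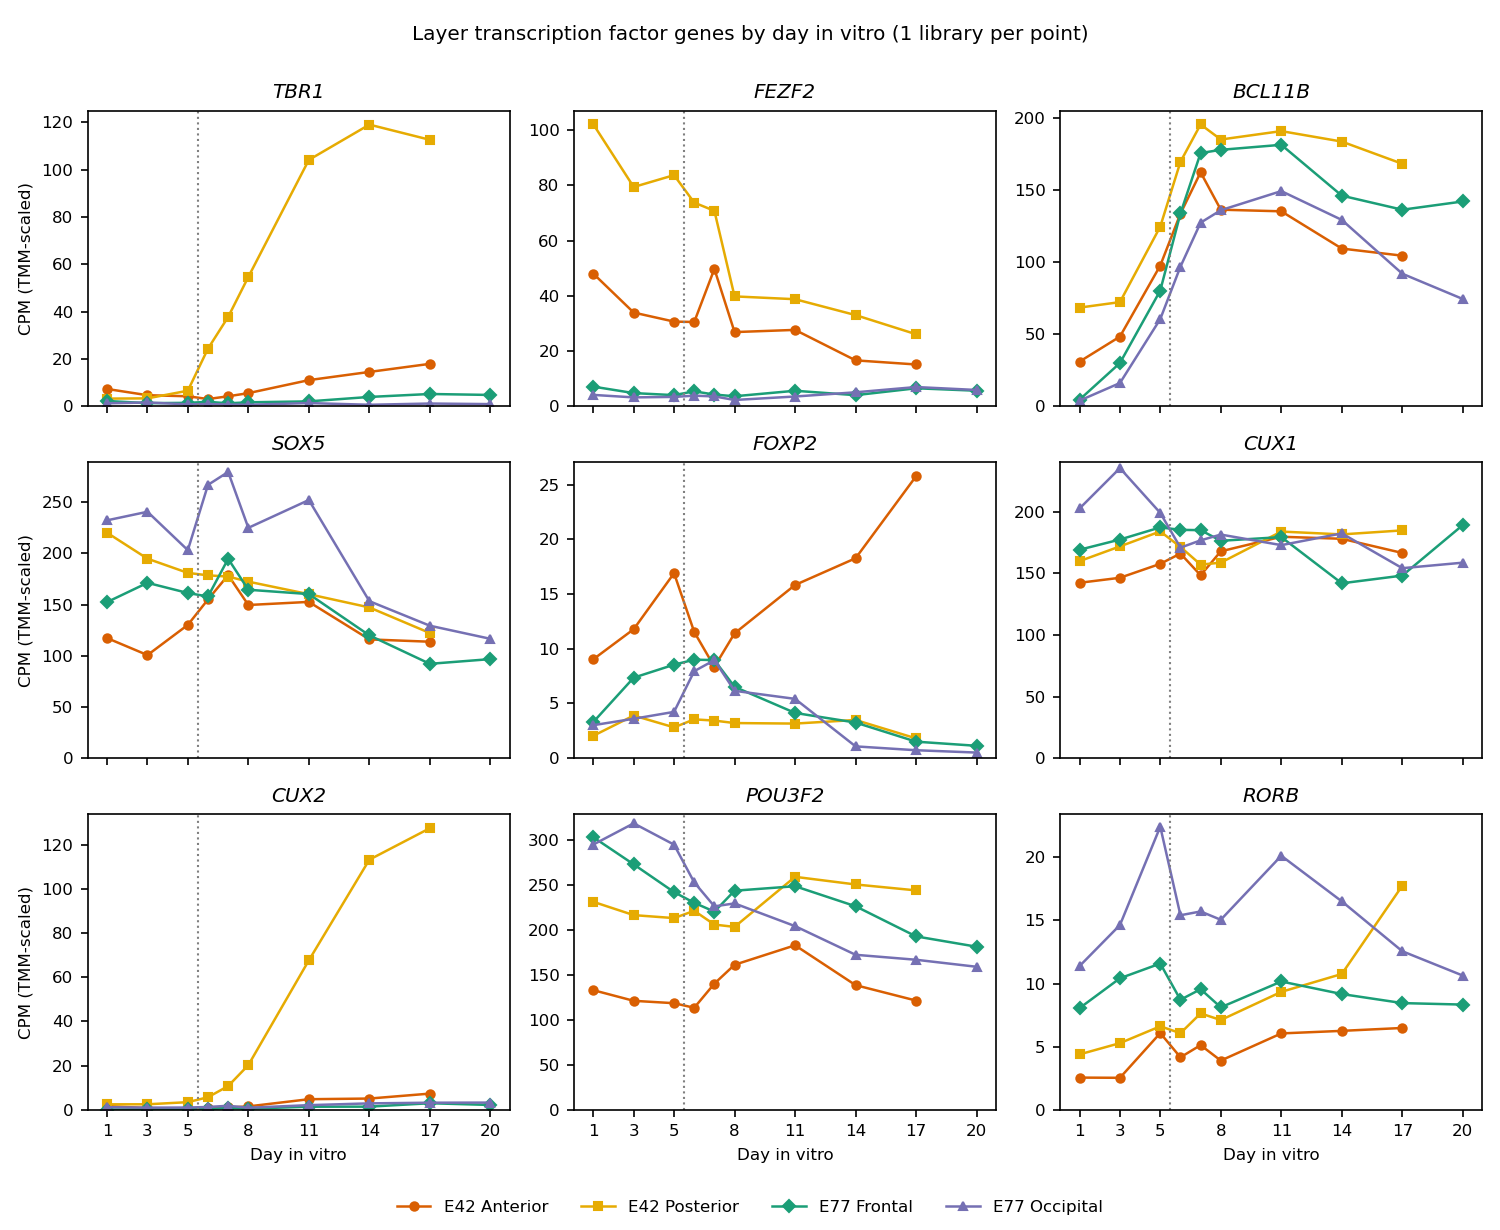
CPM of each of the 9 genes (vertical axis, linear) against day in vitro (horizontal axis), 1 line per series and 1 point per library, with a dotted line between day 5 and day 6, where FGF2 was withdrawn. TBR1 and CUX2 reach 119 and 127 CPM in E42 Posterior and stay at or below 18.0 and 7.36 CPM in the other series, while BCL11B climbs in all 4 series before and across the withdrawal.

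Levels were compared between the genes on the deposited RPKM scale, which divides by gene length. POU3F2 had the highest RPKM level of the 9 in every series, with a mean of 48.4 ± 14.1 RPKM (SD, 38 libraries). BCL11B followed at 13.9 ± 6.72 RPKM, CUX1 at 9.89 ± 1.24 and SOX5 at 9.16 ± 2.87. FEZF2 averaged 8.80 ± 9.92 RPKM, which joins 2 ranges: it ranked at place 2 of the 9 in E42 Posterior (22.6 ± 9.82 RPKM, 9 libraries) and 3 in E42 Anterior (10.7 ± 4.08), but 6 in E77 Frontal (1.95 ± 0.44, 10 libraries) and in E77 Occipital (1.56 ± 0.49). RORB averaged 2.77 ± 1.42 RPKM, TBR1 3.36 ± 6.87, CUX2 1.48 ± 3.95 and FOXP2 0.864 ± 0.691. The gene at the bottom differed by series. It was CUX2 in E42 Anterior (0.349 ± 0.320 RPKM) and in E77 Frontal (0.149 ± 0.130), FOXP2 in E42 Posterior (0.407 ± 0.096), and TBR1 in E77 Occipital (0.233 ± 0.073).

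**Figure D2:**
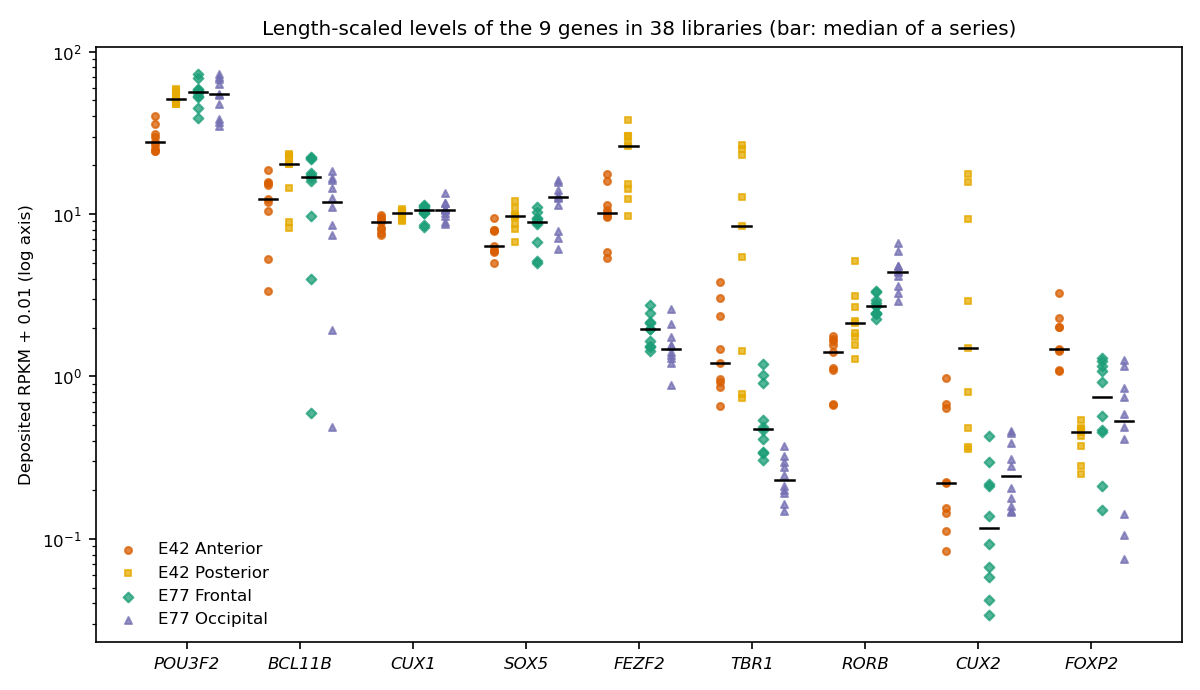
Deposited RPKM + 0.01 on a log axis for the 9 genes in each of the 4 series, 1 point per library and a bar at the median. POU3F2 lies highest in all 4 series (lowest library 24.4 RPKM). FEZF2 does not overlap between the E42 libraries (5.32 RPKM or more) and the E77 libraries (2.76 RPKM or less). TBR1 and CUX2 have their highest medians in E42 Posterior (8.42 and 1.49 RPKM), and for both E42 Anterior overlaps E77 Frontal.

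Tests were run with edgeR's quasi-likelihood method on the counts of all genes, with p-values adjusted over all 20794. From the stem to the terminal phase, 3 of the 9 rose and 1 fell in E42 Anterior, where 34.1% of all tested genes were called. In E42 Posterior 3 rose and 1 fell (39.4% of all genes called), in E77 Frontal 3 rose and 3 fell (43.2%), and in E77 Occipital 2 rose and 3 fell (41.2%). Averaged over the 4 series, 4 rose and 3 fell (62.4%). From stem to transition 3 rose and none fell (41.6%), and from transition to terminal 3 rose and 2 fell (41.9%). The median log2 change of the 9 from stem to terminal was 0.67 in E42 Anterior and 0.19 in E42 Posterior. It was -0.11 in Frontal and -0.27 in Occipital at E77, with the median of all genes between -0.01 and 0.04. The called counts of 4, 4, 6 and 5 of the 9 in the 4 series, and 7 in their average, were not tested against the shares of all genes. The layer factors did not move as one block: CUX2 was called higher in all 4 series, TBR1 in 3, BCL11B in both E77 series and RORB in both E42 series.

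Between ages, E77 against E42, 4 of the 9 were higher and 4 lower in the stem phase (60.2% of all genes called), 4 higher and 3 lower in the transition phase (56.8%), and 1 higher and 4 lower in the terminal phase (45%). Between the E42 regions, Anterior against Posterior, 1 was higher and 5 lower in the stem phase (35.5%), with the same counts in the terminal phase (35.8%). Between the E77 regions, Frontal against Occipital, 4 were lower in the stem phase (22.7%), and in the terminal phase 2 were higher and 2 lower (13.6%). The signed log2 change from stem to terminal was more positive at E77 for 2 and more negative for 6 (26.2% of all genes called). It differed between the E42 regions for 3 of the 9 (11.7%) and between the E77 regions for 1 (5.64%). The 9 genes were chosen by name with earlier results known, so no share is tested here against that of all genes. Of the 86 calls among the 153 member results, 68 held in every fit that left out 1 library and 18 were lost in at least 1.

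**Figure D3:**
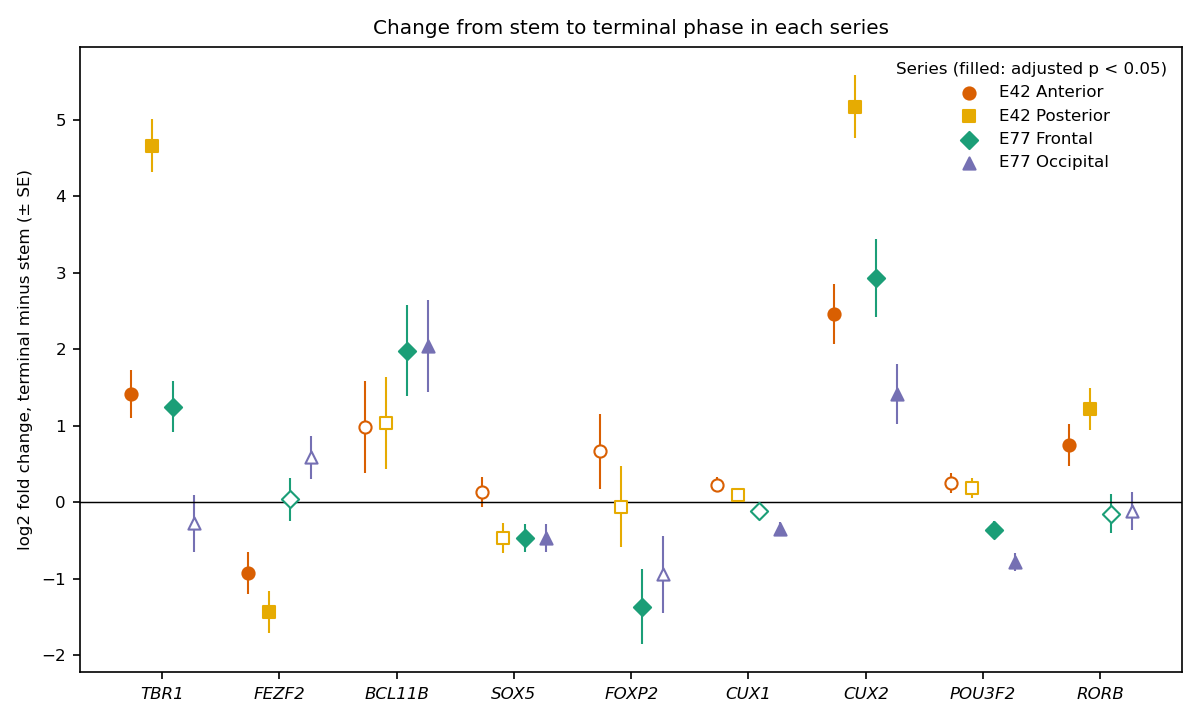
Log2 change from the stem to the terminal phase for each of the 9 genes (points, with bars of 1 standard error) in each of the 4 series. Filled points have an edgeR adjusted p under 0.05. CUX2 lies above 0 in all 4 series, from 1.41 in E77 Occipital to 5.17 in E42 Posterior, and FEZF2 lies below 0 in the E42 series.

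TBR1, a T-box factor of early-born deep-layer neurons, rose in 3 of the 4 series. In E42 Posterior it stood at 3.27, 3.38 and 6.61 CPM on days 1, 3 and 5, at 24.4, 37.8 and 54.7 CPM on days 6, 7 and 8, and at 104, 119 and 113 CPM on days 11, 14 and 17. The 3 phases did not overlap, and TBR1 rose by 4.66 ± 0.35 (log2 ± SE) from 4.42 ± 1.90 CPM (SD, n = 3) to 112 ± 7.48 CPM (n = 3), which is 25.4-fold (edgeR adjusted p = 1.46e-10). In E42 Anterior it stayed between 3.10 and 7.35 CPM through day 8 and then stood at 11.1, 14.6 and 18.0 CPM. That rise was 1.42 ± 0.31 on the log2 scale (edgeR adjusted p = 0.000730). In E77 Frontal the 6 libraries through day 8 held 1.29 to 2.27 CPM and the 4 later ones 2.11, 3.98, 5.23 and 4.83 CPM. The day 11 library lay within the stem range, and the log2 change was 1.25 ± 0.34 (edgeR adjusted p = 0.00326). In E77 Occipital all 10 libraries held 0.675 to 1.64 CPM, which is 19 to 42 reads each, and the log2 change was -0.27 ± 0.37 (edgeR adjusted p = 0.590).

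The rise of TBR1 was smaller in E42 Anterior than in E42 Posterior by 3.26 on the log2 scale (± 0.41, edgeR adjusted p = 1.09e-05). In the stem phase the E42 regions overlapped (5.44 ± 1.66 against 4.42 ± 1.90 CPM, edgeR adjusted p = 0.500). In the terminal phase Anterior was 7.87-fold lower (log2 difference -2.98 ± 0.28, edgeR adjusted p = 1.27e-08). Between ages TBR1 was lower at E77 in each phase, by a log2 difference of -1.74 ± 0.25 in the stem phase (edgeR adjusted p = 2.43e-06), -3.45 ± 0.25 in the transition phase (1.19e-10) and -4.37 ± 0.24 in the terminal phase (4.66e-13). Without the E42 Anterior libraries, a comparison added after the data had been seen, these were -1.56, -5.00 and -5.83. Within E77, terminal TBR1 was 3.86-fold higher in Frontal (4.04 ± 1.39 CPM, n = 4) than in Occipital (1.05 ± 0.31 CPM, n = 4), with no overlap (log2 difference 1.95 ± 0.32, edgeR adjusted p = 0.000112). The E77 regions did not differ by the test in their change from stem to terminal (1.52 ± 0.52, edgeR adjusted p = 0.0913), although leaving out the Occipital library of day 5 or of day 11 brought that p to 0.0449 and 0.0410.

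FEZF2 went the other way from TBR1 in the E42 cultures. In E42 Posterior it stood at 102, 79.4 and 83.7 CPM on days 1, 3 and 5, at 73.8, 70.8 and 39.8 CPM on days 6, 7 and 8, and at 38.8, 33.0 and 26.1 CPM on days 11, 14 and 17. Its fall from 88.4 ± 12 to 32.7 ± 6.35 CPM was 2.71-fold (log2 change -1.44 ± 0.27, edgeR adjusted p = 0.000120). In E42 Anterior it stood at 48.0, 34 and 30.7 CPM in the stem phase, 30.6, 49.8 and 26.9 CPM in the transition phase, and 27.7, 16.7 and 15.2 CPM in the terminal phase. The log2 change there was -0.92 ± 0.27 (edgeR adjusted p = 0.00895), and it was lost without the library of day 1 or of day 17, with an adjusted p of up to 0.0629. At E77 the gene was low throughout, at 3.66 to 7.15 CPM in Frontal and 2.31 to 7.0 CPM in Occipital, and neither series passed the test (log2 changes 0.04 ± 0.28 and 0.59 ± 0.28, edgeR adjusted p = 0.928 and 0.0989).

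All 18 E42 libraries held more FEZF2 than any of the 20 E77 libraries. The E77 cultures were 13.2-fold lower in the stem phase (4.47 ± 1.42 against 63.0 ± 29.5 CPM, n = 6 each, edgeR adjusted p = 1.32e-14), 12.2-fold lower in the transition phase and 4.71-fold lower in the terminal phase (edgeR adjusted p = 4.00e-11). Without E42 Anterior the stem-phase log2 difference moved from -3.72 to -4.35. The stem to terminal change differed between ages, by 1.48 ± 0.22 on the log2 scale (edgeR adjusted p = 4.05e-05). E42 Anterior was lower than E42 Posterior in the stem phase (log2 difference -1.25 ± 0.20, edgeR adjusted p = 2.28e-05) and in the terminal phase (-0.74 ± 0.20, edgeR adjusted p = 0.00664). The terminal difference did not hold when any of 3 of the 6 libraries was left out (adjusted p up to 0.0745). FEZF1, the paralogue of FEZF2, had 2.16 ± 0.92 CPM in stem-phase E42 Posterior and 0.156 ± 0.098 CPM in E42 Anterior (log2 difference -3.79 ± 0.58, edgeR adjusted p = 3.09e-05). No FEZF1 read was counted in any E77 Occipital library.

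BCL11B differed from both in that it was abundant in every series after FGF2 withdrawal. In E77 Frontal it stood at 4.67, 30.0 and 80.2 CPM on days 1, 3 and 5, at 134, 175 and 178 CPM on days 6, 7 and 8, and at 181, 146, 136 and 142 CPM on days 11, 14, 17 and 20. In E77 Occipital it stood at 3.99, 16.1 and 60.5 CPM, then at 96.8, 127 and 136 CPM, and then at 149, 129, 91.9 and 74.4 CPM. On day 5, with FGF2 still present, the level was already 17.2-fold above day 1 in Frontal and 15.2-fold in Occipital, in single libraries with no test. The E42 series began higher, at 31.0, 48.3 and 97.5 CPM in Anterior and 68.4, 72.2 and 125 CPM in Posterior. In the 6 later libraries they held 104 to 162 CPM in Anterior and 168 to 195 CPM in Posterior.

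BCL11B rose from stem to terminal in E77 Frontal (log2 change 1.98 ± 0.60, edgeR adjusted p = 0.00827) and in E77 Occipital (2.04 ± 0.60, edgeR adjusted p = 0.00739). Both calls were lost when the fit held only the libraries compared (adjusted p = 0.103 and 0.0951). Leaving out single libraries gave 1.47 to 3.13 in Frontal and 1.52 to 3.46 in Occipital, each lowest without the day 1 library and highest without that of day 5. In E42 Anterior (0.98 ± 0.60, edgeR adjusted p = 0.218) and E42 Posterior (1.03 ± 0.60, 0.178) the change did not pass, although the stem and terminal libraries did not overlap in either. Averaged over the series, the transition phase was above the stem phase (1.64 ± 0.31, edgeR adjusted p = 8.95e-05), and terminal against transition gave -0.14 ± 0.29 (edgeR adjusted p = 0.735). These phase means do not place the rise after the withdrawal, because BCL11B already climbed from day 1 to day 5 within the stem phase. In the stem phase BCL11B was 3.23-fold lower at E77 than at E42 (edgeR adjusted p = 1.93e-05), although the ages overlapped. Without E42 Anterior this log2 difference was -2.19 (edgeR adjusted p = 0.000221). In the transition and terminal phases the ages also overlapped and the log2 differences were -0.23 ± 0.25 and -0.08 ± 0.25 (edgeR adjusted p = 0.444 and 0.819). The stem to terminal change was larger at E77 by 1.61 ± 0.37 (edgeR adjusted p = 0.00289), but without the day block it was 1.01 ± 0.58 (0.220). No region comparison called BCL11B; without the E42 Posterior library of day 5, the stem-phase difference between the E42 regions passed (edgeR adjusted p = 0.0127). BCL11A, its paralogue, rose in all 4 series (average log2 change 1.64 ± 0.16, edgeR adjusted p = 3.74e-10), from 39.7 ± 20.4 CPM in 12 stem libraries to 118 ± 30.0 CPM in 14 terminal libraries.

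SOX5, an SRY-box factor of deep-layer neurons, was well expressed in every library, from 92.1 to 279 CPM. In E77 Occipital it stood at 232, 241 and 203 CPM in the stem phase, 267, 279 and 225 CPM in the transition phase, and 252, 153, 129 and 117 CPM in the terminal phase. The day 11 library stood with the earlier ones and the 3 later libraries below all of them. In E77 Frontal the terminal libraries held 160, 120, 92.1 and 96.7 CPM after 152 to 195 CPM through day 8. Both E77 series fell by the test (log2 changes -0.46 ± 0.18 in Frontal and -0.47 ± 0.18 in Occipital, edgeR adjusted p = 0.0414 and 0.0403), but the call was lost in 6 of 7 fits without 1 library in Frontal (adjusted p up to 0.149) and in 5 of 7 in Occipital (up to 0.164). Over the 4 series, SOX5 fell from transition to terminal (-0.46 ± 0.10, edgeR adjusted p = 0.000248) and did not pass from stem to transition (0.15 ± 0.10, 0.247).

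In the E42 series SOX5 had different starting levels. In the stem phase it held 117, 101 and 130 CPM in Anterior and 220, 195 and 181 CPM in Posterior, a 1.71-fold difference with no overlap (edgeR adjusted p = 3.89e-06). The terminal levels overlapped, at 127 ± 21.8 and 143 ± 19.3 CPM (n = 3 each, edgeR adjusted p = 0.235). Its stem to terminal change was -0.47 ± 0.20 in Posterior (edgeR adjusted p = 0.0574) and 0.14 ± 0.20 in Anterior (0.640), and the difference between the regions was 0.60 ± 0.16 (edgeR adjusted p = 0.0125; 0.245 without the day block). At E77, Occipital was above Frontal in the stem phase (225 ± 19.7 against 162 ± 9.40 CPM, edgeR adjusted p = 0.00246) and in the terminal phase (edgeR adjusted p = 0.00176), with adjusted p of 0.108 and 0.0950 when the day block was dropped. SOX5 was higher at E77 than at E42 in the stem phase (log2 difference 0.33 ± 0.08, edgeR adjusted p = 0.000835) only as long as E42 Anterior was included: without it the difference was -0.060 (0.618). Its paralogue SOX6 was likewise higher at E77 in the stem phase (0.91 ± 0.10, edgeR adjusted p = 1.40e-08) and in the terminal phase (0.99 ± 0.10, 4.08e-09). SOX6 held 81.4 to 144.3 CPM in E42 Anterior and 143.5 to 219.7 CPM in E42 Posterior, and its differences without E42 Anterior are not given.

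FOXP2, a forkhead factor, had its highest levels in E42 Anterior, where it stood at 9.04, 11.8 and 16.9 CPM in the stem phase, 11.5, 8.35 and 11.4 CPM in the transition phase, and 15.8, 18.3 and 25.8 CPM in the terminal phase. E42 Posterior held 1.80 to 3.89 CPM over its 9 libraries. The regions did not overlap in any phase, and Anterior was 4.28-fold higher in the stem phase (edgeR adjusted p = 0.000143) and 7.89-fold higher in the terminal phase (log2 difference 2.98, edgeR adjusted p = 3.29e-06; 2.25 without the Anterior library of day 17). The mesenchymal genes moved with FOXP2 between these 2 series, as given above, and their part in the difference was not tested. Its paralogue FOXP1 was also higher in E42 Anterior, at 92.5 ± 27.4 against 14.8 ± 0.23 CPM in the stem phase (log2 difference 2.60 ± 0.17, edgeR adjusted p = 3.75e-12) and 2.33 ± 0.17 on the log2 scale in the terminal phase (5.53e-11). FOXP4 was higher there as well (1.54 ± 0.25 and 0.79 ± 0.25, edgeR adjusted p = 2.94e-05 and 0.0152).

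At E77, FOXP2 was highest around the withdrawal. In E77 Frontal it stood at 3.30, 7.35 and 8.54 CPM on days 1, 3 and 5, at 9.0, 8.96 and 6.51 CPM on days 6, 7 and 8, and at 4.13, 3.25, 1.5 and 1.13 CPM on days 11, 14, 17 and 20. In E77 Occipital it stood at 3.01, 3.60 and 4.23 CPM, then 7.95, 8.96 and 6.15 CPM, and then 5.42, 1.07, 0.721 and 0.508 CPM. Both series thus ended below their day 1 level. The stem to terminal fall passed in Frontal (log2 change -1.37 ± 0.49, edgeR adjusted p = 0.0242), but not without the library of day 3, 5, 17 or 20 (adjusted p up to 0.109). In Occipital it did not pass (-0.94 ± 0.50, edgeR adjusted p = 0.135), where the day 11 library stood apart from the other terminal ones; without it the adjusted p was 8.31e-05. Over the 4 series FOXP2 fell from transition to terminal (-0.77 ± 0.25, edgeR adjusted p = 0.0138). Terminal FOXP2 was 3.20-fold lower at E77 than at E42 (edgeR adjusted p = 5.73e-05), which rested on E42 Anterior: against E42 Posterior alone the log2 difference was -0.26 (0.510), and in the stem and transition phases E77 was then higher (0.71 and 1.25, edgeR adjusted p = 0.0379 and 0.000865). The difference between ages in the stem to terminal change (-1.33 ± 0.40, edgeR adjusted p = 0.0174) was likewise lost without E42 Anterior (-0.97, 0.0999).

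CUX2, a homeodomain factor of upper-layer neurons, rose in all 4 series. In E42 Posterior it stood at 2.52, 2.53 and 3.49 CPM in the stem phase, 5.73, 10.8 and 20.3 CPM in the transition phase, and 67.7, 113 and 127 CPM in the terminal phase. The 3 phases did not overlap, and the rise from 2.85 ± 0.56 to 103 ± 31.2 CPM (n = 3 each) was 36.1-fold (log2 change 5.17 ± 0.41, edgeR adjusted p = 3.09e-10). In E42 Anterior it stood at 0.605 to 1.72 CPM through day 8 and at 4.83, 5.13 and 7.36 CPM in the terminal phase, a 5.5-fold rise (edgeR adjusted p = 2.02e-05). In E77 Frontal the stem libraries held 0.165, 0.213 and 0.411 CPM and the terminal libraries 1.43, 1.46, 3.01 and 2.22 CPM. In E77 Occipital they held 1.21, 1.02 and 1.06 CPM and 2.14, 2.94, 3.25 and 3.30 CPM. The E77 rises passed without overlap (7.64-fold and 2.66-fold, edgeR adjusted p = 2.67e-05 and 0.00458), from 4 to 84 reads per library in Frontal. The Frontal and Occipital calls were lost on the log2(RPKM + 1) scale (limma adjusted p = 0.144 and 0.19), on which levels this low hardly move.

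The CUX2 rise was smaller in E42 Anterior than in E42 Posterior (difference -2.67 ± 0.43 on the log2 scale, edgeR adjusted p = 0.000167) and smaller at E77 than at E42 (-1.72 ± 0.41, edgeR adjusted p = 0.00329; -3.05 without E42 Anterior). Terminal E42 Anterior was 17.6-fold below terminal E42 Posterior (edgeR adjusted p = 2.16e-11), and stem Anterior was 2.76-fold below stem Posterior (edgeR adjusted p = 0.00101). Terminal E77 libraries held 2.47 ± 0.76 CPM (n = 8) against 54.3 ± 56.7 CPM (n = 6) at E42, with no overlap and a 10.4-fold difference (log2 difference -3.38 ± 0.21, edgeR adjusted p = 2.27e-12; -5.44 ± 0.21 without E42 Anterior). Within E77 the stem levels were 4.11-fold lower in Frontal than in Occipital (edgeR adjusted p = 0.00439; 0.0527 without the Frontal library of day 1), while the terminal levels overlapped (edgeR adjusted p = 0.236). The difference between the E77 regions in the change was 1.5 ± 0.59 and did not pass (edgeR adjusted p = 0.145).

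CUX1, the paralogue partner of CUX2, barely varied. Its 38 libraries lay between 142 and 235 CPM, and the group means between 149 ± 7.97 CPM in stem E42 Anterior and 212 ± 20.0 CPM in stem E77 Occipital. The latter was the only one of the 12 groups that did not overlap with the next in order. From there CUX1 fell by 0.35 ± 0.09 on the log2 scale to the terminal phase (edgeR adjusted p = 0.00168). In E42 Anterior the change was 0.23 ± 0.09 without overlap and missed the threshold (edgeR adjusted p = 0.0501). Its stem to terminal change was lower at E77 by 0.42 (± 0.09, edgeR adjusted p = 0.000895). It was 1.22-fold higher at E77 in the stem phase (edgeR adjusted p = 0.000323; 0.0793 without E42 Anterior) and 1.11-fold higher in the transition phase (0.0375; 0.0702). Frontal was 1.19-fold below Occipital in the stem phase (edgeR adjusted p = 0.0334), a call that held in 1 of 6 fits without 1 library. The transition call between ages held in 4 of 12.

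POU3F2, a POU-domain factor, was present at 113 to 318 CPM in every library. It was lowest in E42 Anterior, at 113 to 183 CPM, while E42 Posterior held 203 to 259 CPM, with no overlap. Anterior was 1.77-fold lower in the stem phase (edgeR adjusted p = 1.48e-07) and 1.72-fold lower in the terminal phase (4.33e-07). At E77 the stem libraries were the highest, at 303, 273 and 242 CPM in Frontal and 295, 318 and 295 CPM in Occipital. The terminal libraries held 248, 226, 193 and 181 CPM in Frontal and 204, 172, 167 and 159 CPM in Occipital. The fall was 1.72-fold in Occipital without overlap (log2 change -0.79 ± 0.12, edgeR adjusted p = 4.61e-06) and 1.28-fold in Frontal (-0.36 ± 0.12, 0.0144), where the call was lost without the library of day 1, 17 or 20. In the E42 series the changes were 0.25 ± 0.13 and 0.19 ± 0.13 and did not pass (edgeR adjusted p = 0.134 and 0.247). The change was lower at E77 by 0.73 (± 0.10, edgeR adjusted p = 5.40e-06), and this held without E42 Anterior (-0.69, edgeR adjusted p = 4.99e-05).

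In the stem phase POU3F2 was 1.74-fold higher at E77 than at E42, with no overlap (edgeR adjusted p = 4.56e-10). In the transition phase it was 1.37-fold higher (4.40e-06). Without E42 Anterior the stem and transition log2 differences of POU3F2 were 0.38 and 0.19 (edgeR adjusted p = 0.000142 and 0.0265). Fits without 1 library gave 0.74 to 0.82 and 0.38 to 0.52. In the terminal phase the log2 difference was 0.06 ± 0.07 (edgeR adjusted p = 0.495), and against E42 Posterior alone it was -0.32 (0.000753). Terminal Frontal was 1.2-fold above terminal Occipital (edgeR adjusted p = 0.0302), a call that held in none of 8 fits without 1 library. The difference between the E77 regions in the change (0.43 ± 0.13, edgeR adjusted p = 0.0482) held in 1 of 14. The paralogue POU3F3 followed the same order between the E42 regions, at 356 ± 29.0 against 665 ± 56.8 CPM in the stem phase (log2 difference -0.90 ± 0.08, edgeR adjusted p = 2.49e-09). POU3F1, of the same family, was at 0.861 to 10.2 CPM.

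RORB, a nuclear receptor, was highest in E77 Occipital, where its 10 libraries held 10.6 to 22.4 CPM, and lowest in E42 Anterior, at 2.54 to 6.48 CPM. The 3 Occipital phases were the top 3 of the 12 groups, with neighbours in the order overlapping. E77 Frontal was flat, at 8.05 to 11.6 CPM in 10 libraries. In E42 Posterior RORB stood at 4.39, 5.28 and 6.61 CPM in the stem phase, 6.07, 7.63 and 7.11 CPM in the transition phase, and 9.34, 10.8 and 17.7 CPM in the terminal phase. That 2.33-fold rise passed without overlap (log2 change 1.22 ± 0.27, edgeR adjusted p = 0.000742). In E42 Anterior the change was 0.75 ± 0.28 (edgeR adjusted p = 0.0364), with overlap, and the call held in 1 of 6 fits without 1 library. The E77 series did not pass (-0.15 ± 0.25 in Frontal and -0.11 ± 0.25 in Occipital, edgeR adjusted p = 0.657 and 0.750), and the change was lower at E77 by 1.04 (± 0.20, edgeR adjusted p = 0.000523).

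Occipital RORB was above Frontal in the stem phase (16.1 ± 5.67 against 10.0 ± 1.80 CPM, edgeR adjusted p = 0.0204; 0.0885 without the day block) and in the terminal phase (14.9 ± 4.22 against 9.03 ± 0.84 CPM, n = 4 each, no overlap, edgeR adjusted p = 0.00510; 0.0512 without the block). E42 Anterior was below E42 Posterior in the stem phase (edgeR adjusted p = 0.0258, held in 2 of 6 fits without 1 library) and in the terminal phase (2.01-fold, no overlap, edgeR adjusted p = 0.000311). E77 was 2.87-fold above E42 in the stem phase, with no overlap (edgeR adjusted p = 3.44e-09), and 2.11-fold above it in the transition phase (8.69e-07). Without E42 Anterior these log2 differences were 1.21 and 0.79 (edgeR adjusted p = 2.04e-05 and 0.00127). With all 4 series kept, fits without 1 library gave 1.41 to 1.64 and 1.05 to 1.13. The terminal difference of 0.48 ± 0.14 (edgeR adjusted p = 0.00785) was -0.016 (0.954) without E42 Anterior. RORA, its paralogue, rose in the average of the series (log2 change 1.06 ± 0.11, edgeR adjusted p = 4.17e-10).

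The members were set beside markers of the neurons that could carry them. NEUROD2, a factor of maturing glutamatergic neurons, stood at 2.01, 1.22 and 3.03 CPM in the stem phase of E42 Posterior, at 7.19, 12.4 and 20.2 CPM in the transition phase, and at 60.2, 84.3 and 83.8 CPM in the terminal phase. Its terminal levels were 5.66 to 10.7 CPM in E42 Anterior and 0.548 to 4.28 CPM in E77 Frontal, and it was listed at 0 reads in E77 Occipital through day 11. NEUROD2, TBR1 and CUX2 thus had their highest libraries in the same series and phase. NEUROD6, a related factor of the same neurons, stood at 82.6, 115 and 120.3 CPM in terminal E42 Posterior and at 3.96 to 5.70 CPM in terminal E42 Anterior, and no library of either E77 series passed 1.32 CPM. EOMES, the paralogue of TBR1 and the factor of intermediate progenitors, reached 201 CPM in E42 Posterior on day 11 and at most 6.09 CPM in E77 Occipital. SLC17A7, another gene of the excitatory lineage, had a different order. Its highest library was that of day 8 in E42 Anterior, where it held 1.76 to 13.5 CPM. E42 Posterior held 0.170 to 7.46 CPM, and no E77 library passed 0.274 CPM.

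In E77 Occipital, BCL11B was set beside genes of GABAergic neurons. GAD1, which makes GABA, stood at 7.0, 10.9 and 59.8 CPM in the stem phase, at 119, 161 and 130 CPM in the transition phase, and at 164, 116, 144 and 115 CPM in the terminal phase. DLX2, a factor of ventral forebrain interneuron precursors, stood at 20.0, 149 and 207 CPM there in the stem phase and at 124 to 260 CPM from day 6 on. STMN2, found in all young neurons, went from 0.117 CPM on day 1 to 44.8 CPM on day 7 and 105 CPM on day 14. From day 6 on, BCL11B, GAD1 and DLX2 were thus at 74.4 CPM or more in a series where TBR1, CUX2 and NEUROD2 stood at 3.30 CPM or less. In E42 Posterior, where the excitatory genes were high, log2 BCL11B correlated over the 9 libraries with TBR1 (Pearson r 0.898) and NEUROD2 (0.809) as well as with GAD1 (0.988), and less closely with DLX2 (0.518), in libraries that share a time course. Over all 38 libraries BCL11B correlated with STMN2 (Pearson r 0.893) about as with DLX2 (0.894) and GAD1 (0.847). Within the single series its correlation with STMN2 was 0.9085 to 0.9509. Which cells carried BCL11B was not tested.

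**Figure D4:**
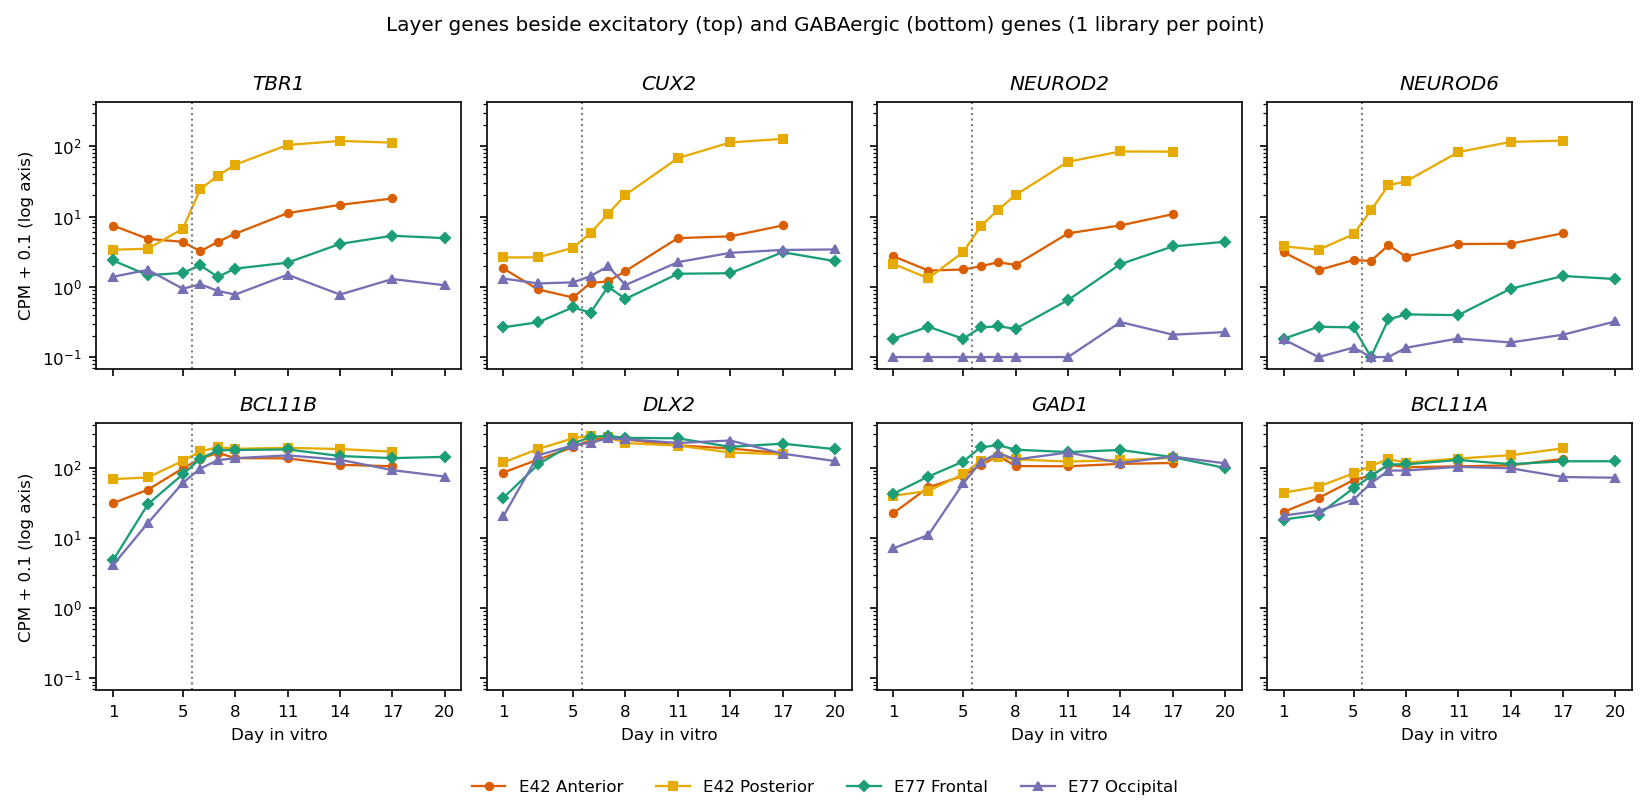
CPM + 0.1 on a log axis against day in vitro, 1 line per series: TBR1, CUX2, NEUROD2 and NEUROD6 in the upper row, BCL11B, DLX2, GAD1 and BCL11A in the lower row. In the upper 4, E42 Posterior lies above the other series from day 6 on, whereas the lower 4 lie between 59.6 and 285 CPM in all series from day 6.

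Lists of other genes gave the setting. Of 12 genes of the excitatory lineage, 10 rose and none fell from stem to terminal in E42 Posterior (median log2 change 3.62, against 0.04 for all genes), with NEUROD2 (5.19 ± 0.50), SLC17A6 (4.84 ± 0.50), NEUROD6 (4.68 ± 0.39) and BHLHE22 (4.32 ± 0.53) in front. In E42 Anterior 10 rose and 1 fell (median 2.00). In E77 Frontal 7 rose and 1 fell, with a median of 2.71, or 1.94 with the 2 genes that had no stem-phase read set at 3 reads per group. In E77 Occipital 2 rose and 2 fell, with a median of 1.11, or 0.50 with 3 such genes at that floor. Their summed terminal level was 457 to 505 CPM in E42 Posterior, 77 to 78.9 CPM in E42 Anterior, 22.3 to 24.2 CPM in E77 Frontal and 4.9 to 9.0 CPM in E77 Occipital. In the terminal phase all 12 were lower at E77 than at E42 (median -4.56 against -0.02). Between the E42 regions 10 were lower in Anterior (median -2.46 against -0.07), and between the E77 regions 7 were higher in Frontal (median 2.73, or 2.07 with 1 gene at the floor, against 0.00).

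Of 12 other deep-layer and subplate genes, 5 rose and 1 fell in E42 Anterior, 6 rose and none fell in E42 Posterior, 5 rose and 1 fell in E77 Frontal, and 5 rose and 2 fell in E77 Occipital, with medians of 0.39, 0.92, 0.45 and 0.16. Examples from E42 Posterior were NXPH4, a subplate neuron gene, at 3.14 ± 0.38, and TSHZ3, a zinc finger factor, at 1.40 ± 0.19. Of 11 other upper-layer genes, 5 rose and 2 fell in E42 Anterior, 5 rose and 1 fell in E42 Posterior, 3 rose and 3 fell in E77 Frontal, and 4 rose and 4 fell in E77 Occipital, with medians of 0.52, 0.60, -0.15 and -0.39. The median of all genes was between -0.01 and 0.04 in these comparisons, and 34.1%, 39.4%, 43.2% and 41.2% of all genes were called in the same order of series. MEF2C, a MADS-box factor of maturing neurons, rose in all 4 series, from 2.16 ± 0.33 in E77 Frontal to 3.67 ± 0.36 in E42 Posterior, while PLXND1, a semaphorin receptor, fell by 2.43 in E77 Frontal. In the terminal phase, 9 of 12 deep-layer genes and 10 of 11 upper-layer genes were lower at E77 than at E42. The medians were -0.94 and -0.91, against -0.02, with 45% of all genes called. LDB2, a deep-layer gene, was called higher at E77 (log2 difference 0.61). CCN2, among the lower ones, varied widely over the terminal E42 libraries (23.9 ± 24.5 CPM). In the stem phase, MDGA1, UNC5D, POU3F1, POU3F3 and CALB1 of the upper-layer list were higher at E77, and RASGRF2, INHBA, LMO4, MEF2C and PLXND1 were lower. Differences of these lists without E42 Anterior are not given.

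Among the 12 tested paralogues of the members, 4 rose in each series and 2, 3, 1 and 3 fell in Anterior and Posterior at E42 and Frontal and Occipital at E77 (medians 0.62, -0.01, -0.17 and 0.19). In that order, 34.1%, 39.4%, 43.2% and 41.2% of all genes were called. Of 16 GABAergic and striatal genes, 9, 6, 8 and 9 rose in the same order of series and 1, 1, none and 2 fell (medians 1.15, 0.83, 1.13 and 1.41, or 0.97 for each E77 series with genes that lacked reads in a group at the floor). Their summed level lay between 624.8 and 2627.6 CPM over all libraries. Of 13 genes of neurons in general, 12, 11, 10 and 12 rose and none, none, 1 and none fell (medians 1.79, 2.03, 2.63 and 2.51). Of 8 proliferation genes, 5, 8, 8 and 8 fell and none rose (medians -0.78, -1.16, -1.15 and -1.22). Of 12 radial glia genes, 3, 9, 8 and 7 fell and 1, none, 2 and 1 rose (medians -0.26, -0.76, -0.95 and -1.12).

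Glial genes also differed between the ages. All 8 oligodendrocyte lineage genes and 6 of 7 astrocyte genes were higher at E77 than at E42 in the terminal phase (medians 3.76 and 1.82, against -0.02, with 45% of all genes called). In that comparison TBR1, CUX2, FEZF2 and FOXP2 were lower at E77 and RORB was higher. BCL11B, CUX1, SOX5 and POU3F2 were not called. All 8 oligodendrocyte genes were lower in terminal E77 Frontal than in terminal E77 Occipital (median -1.57, against 0.00, with 13.6% of all genes called). Between these groups TBR1 and POU3F2 were higher in Frontal, and SOX5 and RORB were lower. The summed terminal level of the oligodendrocyte genes was 1526 to 3917 CPM in E77 Occipital and 481 to 1425 CPM in E77 Frontal. The part of the glial share of the RNA in these differences was not tested.

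For each member, the 3 genes with the most similar log2 CPM profile over the 38 libraries were found among 13328 named genes, as a description of libraries that share series and phase. For TBR1 these were SLA (Pearson r 0.951), NEUROD6 (0.948) and SLC17A6 (0.947), and for BCL11B they were SCRT2 (0.976), NRXN3 (0.971) and CPLX2 (0.961). For FEZF2 they were ALG1 (0.943), KLF14 (0.926) and IGF2BP1 (0.921), the last an RNA-binding protein of fetal progenitors. CUX2 had CARMIL3 (0.898), LRP8 (0.897), a reelin receptor, and TENT4B (0.895). SOX5 had RALGAPA2 (0.892), HOOK3 (0.864) and KCNH7 (0.863), and RORB had PCDHGB7 (0.881), TRIM9 (0.879) and L3MBTL4 (0.877). POU3F2 had its paralogue POU3F3 (0.844) first, before SEC22C (0.842) and ADGRV1 (0.838). FOXP2 had ANTXR2 (0.849), FLVCR2 (0.840) and ELF4 (0.834). CUX1, which varied least, had the weakest neighbours, GPATCH8 (0.791), ANKRD17 (0.777) and TNRC6B (0.751).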

How the data were processed

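Bulk RNA from 38 culture libraries of wild-type rhesus macaque fetal cortical cells was sequenced as strand-specific poly(A) libraries, per the labels' protocols. The authors deposited whole-number counts per gene and RPKM values (reads scaled by gene length and library total), made with STAR and featureCounts per the submitters' processing notes. The genome build, annotation and strand setting are not given in the sources used here. The deposited RPKM equals the count divided by the library total and gene length. It was used only to compare levels between genes and for alternatives on the log2(RPKM + 1) and log2(RPKM + 0.1) scales.

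Counts of 20794 genes that passed edgeR's filter for low counts were tested with the quasi-likelihood test of edgeR 4.0.16 (robust, R 4.3.3) with TMM factors (0.899 to 1.10). Each design, with or without a day block, had 1 fit over all 38 libraries and 12 groups (series by phase). The days of a phase served as its replicates. Phase comparisons had no day term (26 residual degrees of freedom). Age, region and difference comparisons were blocked by culture day, with 19 residual degrees of freedom. Adjustment was by Benjamini-Hochberg over all genes, with a threshold of 0.05. CPM is the usual library-size-scaled count, taken over the TMM-adjusted total of tested genes. Of 55 same-day library pairs, 44 had a correlation of their deviations from the group means over 0.1 (median 0.224). No 2 libraries agreed within sampling noise (lowest chi-square per gene 9.51 over 703 pairs). Whether antisense reads were counted was not tested, and no genome was used, so no coordinates or sequences are printed.

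Named genes were the 9 members, the 3 genes with the most similar profile to each, the genes of each list with the largest changes, the paralogues and 8 markers. Further layer-list genes were named in the age comparisons after their values had been seen, to show both directions. One gene of the lists is not reported here and was left out of its list's counts and medians, and NEUROD6 was added as a marker after its values had been seen. The members, lists and tests were chosen with earlier results of these data known. Alternatives were DESeq2 1.42.0 (size factors, Wald test), limma 3.58.1 on log2 RPKM, no filter on low counts, no day block, 1 value per day, only the libraries compared, and leaving out single libraries, day 1, day 20 or E42 Anterior. The age comparisons without E42 Anterior were added after the data had been seen. The tests were tried on simulated data with known changes.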

Additional observations from a re-analysis of the deposited data

Results flagged for a closer look

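The stem to terminal change differed between the ages for 8 of the 9 genes (26.2% of all genes) by edgeR's test of the difference itself, as E77 minus E42 on the log2 scale. With its sign kept, it was more positive at E77 for BCL11B (1.61) and for FEZF2 (1.48), which fell in the E42 series only. It was more negative for TBR1 (-2.63), CUX2 (-1.72), FOXP2 (-1.33), RORB (-1.04), POU3F2 (-0.73) and CUX1 (-0.42). Without E42 Anterior the FOXP2 difference did not hold (-0.97), and those of TBR1 and CUX2 were -4.27 and -3.05. Between the E42 regions, as Anterior minus Posterior, it differed for TBR1 (-3.26), CUX2 (-2.67) and SOX5 (0.60), against 11.7% of all genes. Between the E77 regions, as Frontal minus Occipital, it differed for POU3F2 (0.43), against 5.64% of all genes, and this held in 1 of 14 fits without 1 library. Among the 18 sets of 4 terminal libraries at E77, 1 held a library far from the others: FOXP2 in E77 Occipital on day 11, at 5.42 CPM against 0.508 to 1.07 CPM on the later days. These libraries are successive days, and the day 8 library before them held 6.15 CPM. How many such sets would arise from spread alone was not tested.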

How the results depend on the processing

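Counts of the 9 genes called changed most where few were called or where calls lay near the threshold. Without day 1, 2 instead of 4 were called from stem to terminal in E42 Anterior. In E77 Frontal 3 instead of 6 were called without day 20 and 2 when only the libraries compared were fitted, and in E77 Occipital 3 instead of 5 with only those libraries. With 1 value per day, 4 instead of 7 were called for terminal against stem in the average of the series, and 2 instead of 5 for terminal against transition. For Frontal against Occipital in the stem phase, 2 instead of 4 were called with limma on log2(RPKM + 1), with and without the filter. The difference between the E77 regions in the change, 1 gene (POU3F2), became 0 with DESeq2 size factors, without the filter, without day 1, without day 20, with all 3 limma settings and with only the libraries compared, and 2 with the DESeq2 Wald test. The cause was not tested. Without the replicate block (the day), 1 instead of 4 was called for Frontal against Occipital in the stem phase, 1 instead of 4 in the terminal phase and 0 instead of 1 for the E77 region difference. Of 90 member results with that block, 76 kept their direction and side of the threshold without it, and 14 were lost. Leaving out single libraries gave 2 to 4 called genes in E42 Anterior, 3 to 6 in E77 Frontal, 2 to 3 for the E77 regions in the stem phase, and 0 to 1 for the E77 region difference. Of the 1962 member results of those fits, 1853 kept their call, 91 lost it and 18 gained one. Without E42 Anterior, a setting added after the data had been seen for the age comparisons, 27 of 36 member results kept their call. The direction turned for SOX5 (-0.0600) and FOXP2 (0.71) in the stem phase and for POU3F2 (-0.32) and RORB (-0.0164) in the terminal phase. Depth limited TBR1 in E77 Occipital and stem-phase CUX2 in E77 Frontal, which rested on 19 to 42 and on 4 to 10 reads per library.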
